A study of Mus musculus with 6 samples.

Results

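The genes described here make, bind, sense and clear retinoic acid. They are the 9 genes Cyp26a1, Aldh1a2, Rara, Rarb, Rarg, Rxra, Rxrb, Crabp1 and Crabp2, found by their symbols in a deposited table of 14005 genes, and 8 of the 9 had a row. Rarb had none, by symbol or by Ensembl identifier, and so has no value in any library. RNA was sequenced from FLK1+ mesoderm sorted at day 3.5 from embryoid bodies (EBs), the aggregates in which embryonic stem (ES) cells differentiate. The WT group (J1 ES cells) and the Scl-/- group, whose cells lack the haematopoietic regulator SCL (gene Tal1), each had 3 libraries, numbered by independent differentiation. All EBs were grown in medium with fetal bovine serum. With 1 WT line and 1 Scl-/- line, genotype and line cannot be told apart. The strain label reads C57Bl/6 X Sv129 for WT replicates 1 and 2 and Scl-/- replicate 1, while the last part of it is Sv130 for Scl-/- replicate 2, Sv131 for WT replicate 3 and Sv132 for Scl-/- replicate 3. Whether these rising numbers mark different strains or an error of entry is not stated.

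Retinoic acid is made from vitamin A in steps: alcohol dehydrogenases and short-chain dehydrogenases turn retinol into retinal, and retinal dehydrogenases such as ALDH1A2 turn retinal into the acid. CRABP proteins carry it in the cytoplasm, RAR proteins paired with RXR proteins bind it on DNA at direct repeats of a short half-site, and CYP26 enzymes degrade it. In the gastrulating embryo, CYP26A1 keeps early mesoderm and the tail end low in retinoic acid while ALDH1A2 begins to make it in the trunk, and the pathway takes part in patterning the paraxial mesoderm, the heart and blood-forming tissue.

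A receptor element of the direct-repeat type was looked for in the promoter sequences, because the transcription of some pathway genes is itself set by retinoic acid. RefSeq start sites (GRCm38.p6) gave windows from 250 bases before to 50 bases after the start, and 8 of the 9 listed genes had 14 such windows in all, while Crabp2 had no entry. The element called DR5, which is 2 half-sites with 5 bases between them, was searched on both strands, and it was present in 32 of 32851 windows (0.0974%). Of the listed genes, Cyp26a1 and Rarb had it. The 250 bases before each start are printed below 5′ to 3′ along the gene's strand, with the half-sites in capitals, to show how near the element lies to the start.
Cyp26a1, chr19:37772048-37772297 of mm9, + strand: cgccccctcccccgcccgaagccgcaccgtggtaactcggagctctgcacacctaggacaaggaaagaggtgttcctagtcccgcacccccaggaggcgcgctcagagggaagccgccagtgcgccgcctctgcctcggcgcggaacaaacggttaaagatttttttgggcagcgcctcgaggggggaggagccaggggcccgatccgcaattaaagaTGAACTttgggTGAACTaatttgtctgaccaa
Rarb, chr14:17407991-17408240 of mm9, - strand: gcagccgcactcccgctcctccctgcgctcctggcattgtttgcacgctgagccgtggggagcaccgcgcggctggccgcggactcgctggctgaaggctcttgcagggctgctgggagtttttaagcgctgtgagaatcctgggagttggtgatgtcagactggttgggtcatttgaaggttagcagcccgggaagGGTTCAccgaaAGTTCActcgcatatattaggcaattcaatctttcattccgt
Each stretch matched the mm9 sequence of its own chromosome exactly and at 1 place on the gene's strand. The opposite strand and other chromosomes were not searched. The element ends 15 bases before the Cyp26a1 start and 36 bases before the Rarb start, and in Cyp26a1 the half-sites read on the strand opposite to the gene. Windows with the shorter spacings DR2 and DR1, searched in the same way, numbered 88 (0.268%) and 73 (0.222%), and no listed gene was among them, so the printed elements overlap neither. A match describes letters and not a bound site. Of the 31 genes with DR5 in a window, 5 were tested for expression, and Cyp26a1 was the 1 called in the comparison described next, in its fit with the replicate block, where 12.6% of all genes were called. Of the tested genes with DR2 or DR1, 3 of 9 and 1 of 28 were called in that fit.

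The comparison asks whether the RNA levels of these genes differ between FLK1+ cells with and without SCL. Levels are CPM, reads scaled by the authors to a common library size. Log2 fold changes below are positive where Scl-/- cells had more. Reads on the 14005 genes of the table came to 39713877, 38623641 and 40769209 in WT replicates 1, 2 and 3 and to 47621120, 42108168 and 43662177 in the Scl-/- replicates. A floor of 3 reads equals 0.0615 to 0.0784 CPM, and values above it still carry counting error. The table appears to list genes above a minimum, since 13956 of its 14005 rows had at least 1 CPM in 3 libraries, so the lack of a row sets no value for a gene. The limma fit over 13991 genes called a gene at a Benjamini-Hochberg adjusted p under 0.05 with an absolute log2 fold change above 0.48. It was run without and with the replicate number as a block, since libraries of the same number varied together. As a check of the labels, the targeted gene Tal1 was read first: its WT libraries averaged 264 ± 70.5 CPM and its Scl-/- libraries 6.97 ± 2.06 CPM (SD, n = 3 each), with no overlap. Kdr, which encodes FLK1, was the most abundant of the FLK1+ mesoderm markers in every library, at 832 to 868 CPM in WT and 724 to 810 CPM in Scl-/- cells.

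All 8 genes with a row were tested. Without the block 0 of the 8 were called, against 2.36% of all genes, and 3 (Aldh1a2, Crabp2 and Cyp26a1) had an unadjusted limma p under 0.05, against 17.7% of all genes. With the block 4 of the 8 were called, against 12.6% of all genes. Crabp1 and Cyp26a1 were higher in Scl-/- cells, where 6.04% of all genes were, and Aldh1a2 and Crabp2 were lower, where 6.6% of all genes were. The groups of 3 libraries did not overlap for 2 of the 8, Aldh1a2 and Crabp2, against 21.6% of all genes. In all 3 same-numbered pairs 4 of the 8 were higher and 2 lower in the Scl-/- library, and 7869 of the 13991 tested genes likewise kept 1 direction. The median log2 fold change of the 8 was -0.047, beside 0.009 for all tested genes. In the fit with the block, then, the synthesis gene and 1 of the binding proteins were lower in Scl-/- cells. The clearance gene and the other binding protein were higher, and the 4 receptor genes were not called. The call of Aldh1a2 was lost whichever pair of libraries was left out, and that of Crabp2 without the replicate 2 or the replicate 3 pair. In sorted populations such as these, fewer cells that express a gene and less RNA per cell cannot be told apart.

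**Figure D1:**
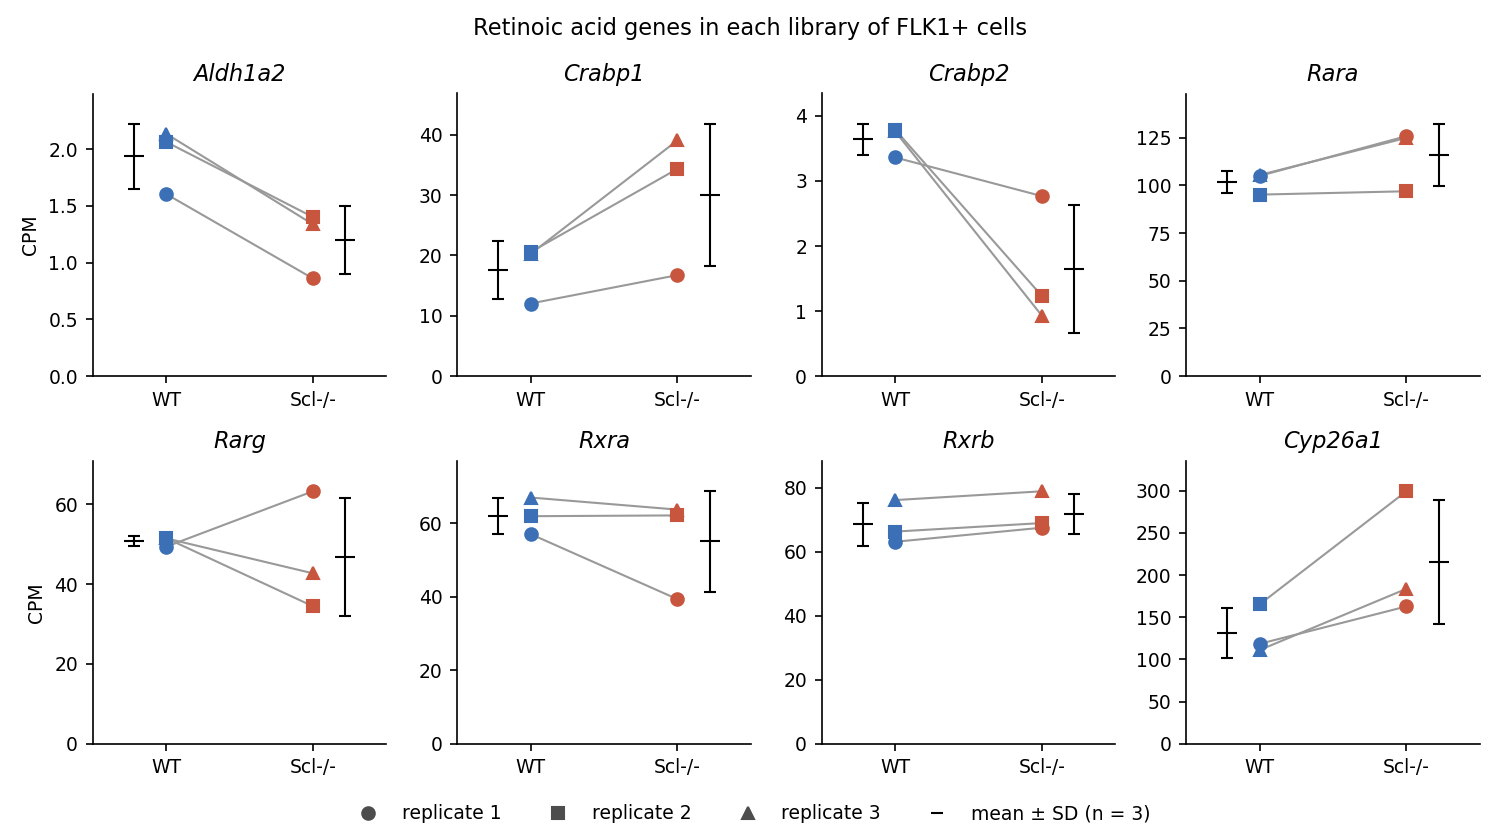
CPM of the 8 listed genes with a row, in each of the 6 libraries, on axes that start at 0. Lines join libraries of the same replicate number, and bars beside the points give the mean and SD of 3 libraries. Aldh1a2 and Crabp2 go down and Crabp1, Rara, Rxrb and Cyp26a1 go up along all 3 lines, while the lines of Rarg and Rxra run both ways.

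Aldh1a2 (ENSMUSG00000013584, chromosome 9, 71063596 to 71144050 of mm9) encodes the retinal dehydrogenase that makes retinoic acid in early mesoderm. It had 1.61, 2.06 and 2.14 CPM in WT replicates 1, 2 and 3 and 0.861, 1.40 and 1.34 CPM in Scl-/- replicates 1, 2 and 3. Replicate 1 was the lowest library of each group, and the lowest WT library lay above the highest Scl-/- library. These values rest on few reads, 64 to 88 per WT library and 42 to 59 per Scl-/- library. The log2 fold change was -0.53 (standard error 0.22 without and 0.16 with the block, limma adjusted p 0.263 and 0.0498), and the gene was lower in 3 of 3 pairs. The call with the block was at the edge of the threshold. It was lost whichever pair of libraries was left out, with log2 fold changes from -0.58 to -0.48 and limma adjusted p-values from 0.146 to 0.167, and it was lost when each chromosome's median was removed (limma adjusted p 0.0555).

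Crabp1 (ENSMUSG00000032291, chromosome 9, 54612555 to 54620917) encodes a cytoplasmic protein that binds retinoic acid and is linked to its breakdown. It had 12, 20.6 and 20.3 CPM in the WT libraries and 16.7, 34.4 and 39.1 CPM in the Scl-/- libraries. Replicate 1 was again low in both groups, so the groups overlapped, yet each Scl-/- library was above the WT library of its own number, by ratios of 1.39, 1.67 and 1.93. The log2 fold change was 0.71 (standard error 0.34 without and 0.11 with the block, limma adjusted p 0.352 and 0.00347). With the block it was called whichever pair was left out, at log2 fold changes from 0.59 to 0.83 (limma adjusted p 1.7e-04 to 0.0419). Without the block the log2 fold change was 0.46 without WT replicate 1 and 1.07 without Scl-/- replicate 1. Crabp1 was not called in these fits (limma adjusted p 0.792 and 0.0811).

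Crabp2 (ENSMUSG00000004885, chromosome 3, 87752588 to 87757298) encodes the related protein that hands retinoic acid to RAR in the nucleus. WT libraries had 3.36, 3.79 and 3.76 CPM, and Scl-/- libraries had 2.77, 1.23 and 0.930 CPM. The WT values lay close together, and Scl-/- replicate 1 stood above the other Scl-/- libraries, near the WT level. The log2 fold change was -1.04 (standard error 0.31 without and 0.25 with the block, limma adjusted p 0.142 and 0.0210), with the gene lower in 3 of 3 pairs. The call depended on which libraries were used. Without Scl-/- replicate 1 the fit that has no block called Crabp2, at -1.39 (limma adjusted p 0.0303, within a range of 0.0303 to 0.409 over the single libraries left out). With the block it was called at -1.44 without the replicate 1 pair (limma adjusted p 5.1e-04), and was not called without the replicate 2 or the replicate 3 pair (-0.91 and -0.77, limma adjusted p 0.146 and 0.127). Per kb of exon, the level of Crabp1 was 5.90, 8.95 and 8.87 times that of Crabp2 in WT replicates 1 to 3 and 9.98, 45.9 and 69.3 times in Scl-/- replicates 1 to 3. The ranges of this ratio did not overlap between the groups, and the ratio was not tested.

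The receptors bind retinoic acid as pairs of an RAR and an RXR protein. Rara (ENSMUSG00000037992, chromosome 11, 98789132 to 98836256) had 105, 95.2 and 105 CPM in WT and 126, 96.9 and 125 CPM in Scl-/- cells, with replicate 2 the lowest of each group and the groups overlapping. Its log2 fold change of 0.18 (95% interval -0.12 to 0.47 without and 0.016 to 0.34 with the block, higher in 3 of 3 pairs) lay below the median of 0.31 over the 1211 tested genes of chromosome 11, and it was -0.13 once chromosome medians were removed, so its sign depends on that shift of the chromosome. Rarg (ENSMUSG00000001288) had 49.4, 51.5 and 51.5 CPM in WT and 63.3, 34.4 and 42.7 CPM in Scl-/- cells. The WT libraries were nearly equal and the Scl-/- libraries lay on both sides of them. Its log2 fold change was -0.16 (95% interval -0.65 to 0.32 without and -0.52 to 0.19 with the block). It was 0.033 without Scl-/- replicate 2 and -0.40 without Scl-/- replicate 1. With the block and without the replicate 1 pair it was -0.42 (limma adjusted p 0.00868), below the fold threshold. Rxra (ENSMUSG00000015846) had 57.0, 61.9 and 67.0 CPM in WT and 39.3, 62.1 and 63.7 CPM in Scl-/- cells. Scl-/- replicate 1 was low and the others lay within the WT range. Its log2 fold change was -0.20 (95% interval -0.65 to 0.25 without and -0.44 to 0.046 with the block), and it was 0.024 without Scl-/- replicate 1. Rxrb (ENSMUSG00000039656) had 63.1, 66.3 and 76.1 CPM in WT and 67.5, 68.9 and 78.9 CPM in Scl-/- cells. Its groups overlapped almost fully, and the log2 fold change was 0.07 (95% interval -0.20 to 0.34 without and -0.077 to 0.21 with the block), or -0.0014 without Scl-/- replicate 3. With the block the limma adjusted p-values of Rara, Rarg, Rxra and Rxrb were 0.106, 0.497, 0.219 and 0.484. Summed per kb of exon, Rara and Rarg came to 34.6 ± 1.15 in WT and 36.7 ± 6.72 CPM per kb in Scl-/- cells (SD, n = 3), a difference smaller than the spread. Rxra, Rxrb and Rxrg together came to 38.3 ± 3.17 and 39.4 ± 5.96 CPM per kb (SD, n = 3), also within the spread.

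Cyp26a1 (ENSMUSG00000024987, chromosome 19, 37772298 to 37776018) encodes the cytochrome P450 enzyme that degrades retinoic acid, and it carries the DR5 element printed above. It had 118, 165 and 111 CPM in WT replicates 1, 2 and 3 and 163, 299 and 184 CPM in Scl-/- replicates 1, 2 and 3. Replicate 2 was the highest of each group, and Scl-/- replicate 1 lay just under WT replicate 2, so the groups overlapped. Within pairs the Scl-/- library was higher by ratios of 1.37, 1.81 and 1.65. The log2 fold change was 0.68 (standard error 0.25 without and 0.081 with the block, limma adjusted p 0.215 and 0.00117). With the block it was called whichever pair was left out, at log2 fold changes from 0.59 to 0.79 (limma adjusted p 2.2e-05 to 0.0160). Without the block and without Scl-/- replicate 2 the log2 fold change was 0.42 (limma adjusted p 0.469, within a range of 0.135 to 0.578 over the single libraries left out). The other CYP26 genes were not called in either fit: Cyp26b1 had a log2 fold change of 0.02 and Cyp26c1 of 0.01, with 95% intervals without the block of -0.49 to 0.54 and -0.55 to 0.56. Cyp26a1 held 95.5% ± 0.281 of the CPM per kb of the 3 CYP26 genes in WT and 97.1% ± 0.282 in Scl-/- cells (SD, n = 3).

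**Figure D2:**
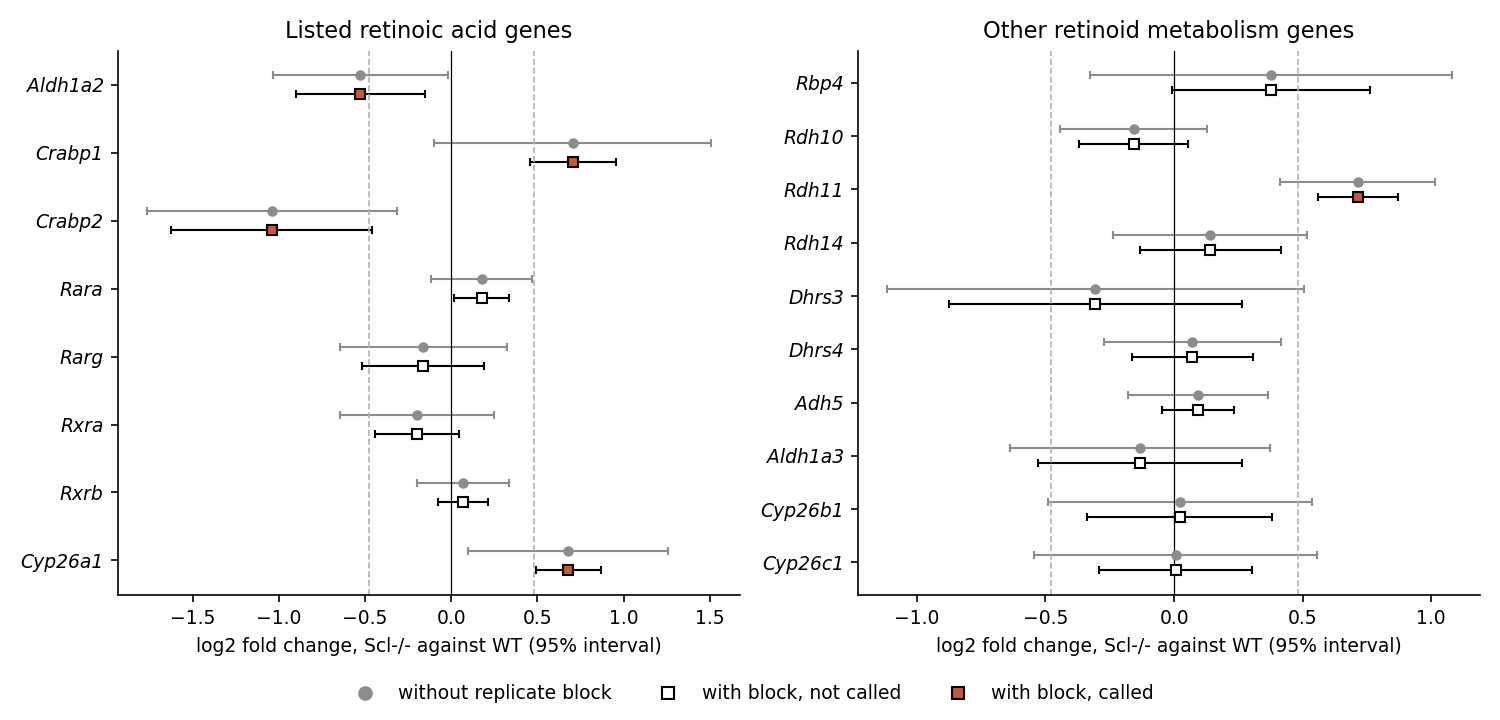
Log2 fold changes, Scl-/- against WT, with 95% intervals from limma for the 8 listed genes and for 10 other genes of retinoid metabolism. Circles are the fit without the replicate block, squares the fit with it, filled where the gene was called, and dashed lines mark the threshold of 0.48 in either direction. The block leaves the fold changes as they are and narrows most intervals, and 4 listed genes and Rdh11 are filled.

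Levels of different genes were compared as CPM per kb of exon. In WT the order ran from Cyp26a1 (74.2 ± 16.6), through Rara (22.3 ± 1.27), Crabp1 (22.0 ± 6.03), Rxrb (18.5 ± 1.84), Rarg (12.4 ± 0.30) and Rxra (11.3 ± 0.911), to Crabp2 (2.75 ± 0.181) and Aldh1a2 (0.855 ± 0.127; all CPM per kb, SD, n = 3). The ranges of neighbours in this order overlapped for Rara and Crabp1, Crabp1 and Rxrb, and Rarg and Rxra, and did not for the other neighbours. In Scl-/- cells Cyp26a1 (121 ± 41.5) came first again, and Crabp1 (37.5 ± 14.7) had a mean above that of Rara (25.3 ± 3.59 CPM per kb, SD, n = 3), with overlapping ranges. Rxrb followed at 19.4 ± 1.67, Rarg at 11.4 ± 3.61 and Rxra at 10.1 ± 2.50 CPM per kb, then Crabp2 at 1.24 ± 0.745 and Aldh1a2 at 0.530 ± 0.131 CPM per kb (SD, n = 3). There the ranges of Rara and Rxrb and of Rarg and Rxra overlapped as well. Per kb, Cyp26a1 was 94.2, 102 and 66.3 times the level of Aldh1a2 in the WT libraries and 241, 273 and 175 times in the Scl-/- libraries. Each Scl-/- ratio lay above each WT ratio. The ratio was not tested, and an exact permutation test of 3 libraries against 3 could not give a p below 0.10.

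**Figure D3:**
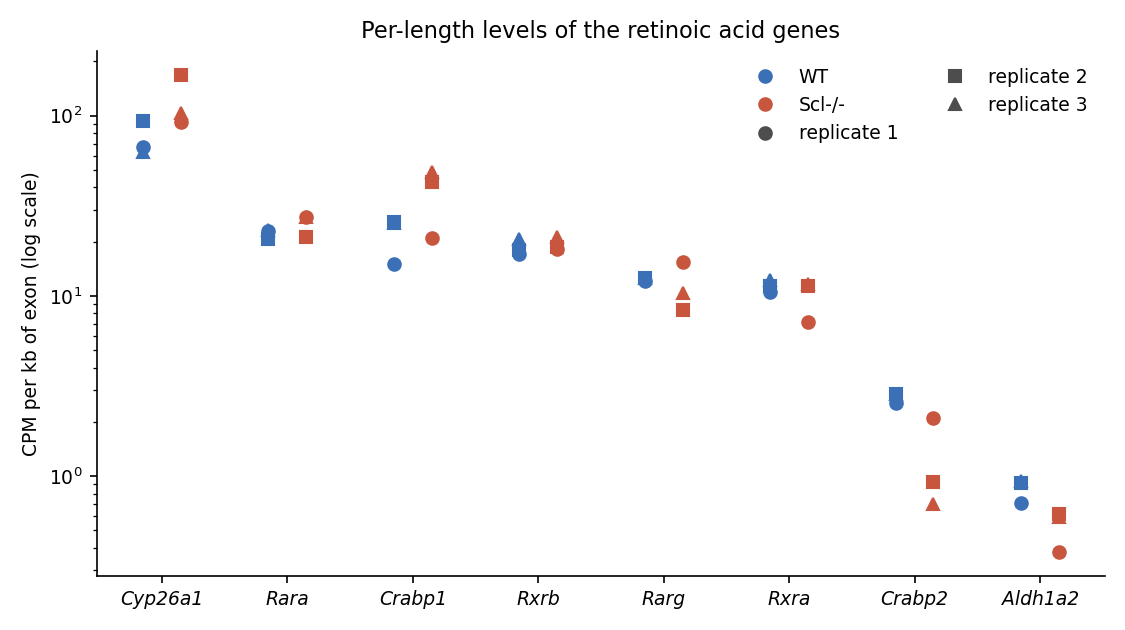
CPM per kb of exon of the 8 listed genes in each library, on a log axis, ordered by the WT mean. Each point is a library, with colours for the groups and shapes for the replicate numbers. Cyp26a1 stands above the other genes in every library, and Aldh1a2 is the lowest in every library.

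Other genes of retinoid metabolism were taken as a list of 25, of which 11 had a row and were tested. Without the block 1 was called, against 2.36% of all genes, and with it 2, against 12.6%, which is near that share. All were higher in Scl-/- cells, where 6.04% of all genes were called with the block, and 8 of the 11 had a positive log2 fold change. Rdh11, which encodes a retinal reductase, had 73.5, 84.5 and 67.3 CPM in WT and 132, 132 and 107 CPM in Scl-/- cells. Its groups did not overlap, and its log2 fold change was 0.71 (standard error 0.13 without and 0.067 with the block, limma adjusted p 0.0366 and 3.7e-04). Without the block its call was lost when WT replicate 1, WT replicate 3, Scl-/- replicate 1 or Scl-/- replicate 2 was left out, with log2 fold changes of 0.70, 0.64, 0.67 and 0.66 (limma adjusted p 0.189, 0.0993, 0.0728 and 0.146). The most abundant gene of the list was Adh5, at 151 to 184 CPM in WT and 157 to 189 CPM in Scl-/- cells. It was not called (log2 fold change 0.09). The genes with no row were Stra6, Rbp2, Rbp7, Lrat, Dhrs9, Adh1, Adh4, Adh7, Rdh1, Sdr16c5, Aldh1a1, Aldh8a1, Bco1 and Bco2. They include the cell-surface retinol receptor (Stra6), the enzyme that stores retinol as esters (Lrat) and the retinal dehydrogenase Aldh1a1. Of the retinal dehydrogenases that make retinoic acid, Aldh1a2 and Aldh1a3 had rows, and Aldh1a2 held 60.5% ± 4.24 of their summed CPM per kb in WT and 51.3% ± 13.0 in Scl-/- cells (SD, n = 3). The groups overlapped, the Scl-/- library had the lower share in 3 of 3 pairs, and the difference was not tested.

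Of 16 genes for RXR gamma, corepressors, coactivators and the alternative carrier and receptor Fabp5 and Ppard, 16 were tested and 0 were called by limma in either fit, against 2.36% of all genes without and 12.6% with the block. An unadjusted limma p was under 0.05 for 2 without and 7 with the block, against 17.7% and 36.9% of all genes. The lowest log2 fold change among them was -0.48, the median -0.12 and the highest 0.43, and 12 of the 16 were negative. With the block Med1, Ncoa2, Ncoa3, Nrip1 and Kat2b had limma adjusted p-values of 0.00909, 0.0176, 0.0186, 0.0231 and 0.0406. These missed the fold threshold alone, Kat2b narrowly at -0.476. The most abundant of the 16 by its mean was the corepressor gene Ncor1, at 333, 342 and 254 CPM in WT and 317, 373 and 299 CPM in Scl-/- cells. Of 10 other nuclear receptors that pair with RXR, 5 were tested and 0 were called by limma in either fit, against the same shares of all genes, with 2 at an unadjusted p under 0.05 in each. These 2 were Nr4a1 and Nr1h2, with log2 fold changes of -0.41 and 0.29. With the block their limma adjusted p-values were 0.0115 and 0.0271, and they missed the fold threshold alone. So few genes give little to read against those shares. The most abundant of the 5 was Nr1h2, at 60.6 to 69.6 CPM in WT and 75.1 to 83.7 CPM in Scl-/- cells. Nr1h4, Ppara, Pparg, Thrb and Vdr had no row. Rxrg and Kat2b were called when chromosome medians were removed and the block was used, at 0.49 and -0.50 (limma adjusted p 0.0109 and 0.0464). Rxrg and Ncoa2 (log2 fold change -0.36) lie on chromosome 1, where the median over 789 tested genes was -0.29 on the log2 scale. Med1 (log2 fold change 0.43) lies on chromosome 11, where the median over 1211 tested genes was 0.31. The chromosomes of Ncoa3, Nrip1 and Kat2b had medians of 0.006, 0.03 and 0.01.

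Genes whose transcription retinoic acid is known to raise in embryonic cells were taken as a list of 25, with Cyp26a1, Crabp2 and Rarb among them. Rows existed for 16, of which 15 were tested, and Hoxa2, Hoxa3, Hoxa4, Hoxa5, Nr2f1, Nr2f2, Stra6, Stra8 and Rarb had none. Without the block 1 was called, lower in Scl-/- cells, against 2.36% of all genes. With it 9 were called, against 12.6% of all genes, 3 higher and 6 lower, so the targets did not move in 1 direction. Their median log2 fold change was -0.31, beside 0.009 for all tested genes, and 7 had groups that did not overlap, against 21.6% of all genes. Among the higher ones were Cyp26a1 and Meis2, a homeobox gene at 15.6, 37.4 and 12.1 CPM in WT and 20.5, 55.3 and 25.9 CPM in Scl-/- cells. The log2 fold change of Meis2 was 0.67 (standard error 0.48 without and 0.13 with the block, limma adjusted p 0.560 and 0.00909), and replicate 2 was high in both groups. Among the lower ones were Crabp2, Tgm2, Hoxb2, Hoxb4 and Hoxb5.

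Tgm2, which encodes a transglutaminase, had 9.08, 3.89 and 15 CPM in WT and 0.389, 0.338 and 0.635 CPM in Scl-/- cells, where it rested on 14 to 28 reads. WT replicate 2 was the lowest of its group and still far above each Scl-/- library. The log2 fold change was -3.20 (standard error 0.43 without and 0.26 with the block, limma adjusted p 0.0134 and 1.7e-04). Its size depended on the pseudocount: without the block it was -3.92 with a pseudocount of 0.1 and -2.67 with 1. Without WT replicate 1 it was -3.12 (limma adjusted p 0.0853) and without Scl-/- replicate 2 it was -3.11 (limma adjusted p 0.055), and in these fits without the block it was not called. Hoxb4 had 5.95, 2.56 and 4.76 CPM in WT and 1.27, 0.169 and 0.703 CPM in Scl-/- cells, with 7 reads in Scl-/- replicate 2. Hoxb5 had 5.19, 1.78 and 5.95 CPM in WT and 0.881, 0.145 and 0.340 CPM in Scl-/- cells, with 6 reads in Scl-/- replicate 2. Replicate 2 was the lowest library of each group for both genes. Their log2 fold changes were -2.06 and -2.27, with limma adjusted p-values of 0.0534 and 0.0524 without the block and 1.7e-04 and 6.1e-04 with it. Without the block they were -2.68 and -3.05 with a pseudocount of 0.1, and -1.66 and -1.79 with 1. Hoxb2 had 26.7, 11.9 and 27.8 CPM in WT and 11.1, 9.33 and 8.28 CPM in Scl-/- cells. Its groups stood apart by a narrow gap between WT replicate 2 and Scl-/- replicate 1. Its log2 fold change was -1.09, with a limma adjusted p of 0.137 without and 0.0109 with the block. Hoxb1, the first gene of the same cluster, was not called in either fit, with a log2 fold change of 0.24, which became -0.068 with chromosome medians removed. The Hoxb genes lie on chromosome 11, and with chromosome medians removed Hoxb2, Hoxb4 and Hoxb5 had log2 fold changes of -1.39, -2.37 and -2.57. Hoxb2, Hoxb5 and Tgm2 each overlap a gene of the opposite strand that also had a row, and whether the libraries kept the strand is not stated. Without the block, 4 targets were called when WT replicate 2 was left out (Tgm2, Hoxb2, Hoxb4 and Hoxb5) and 4 when Scl-/- replicate 1 was left out, with Tgm2, Hoxb4 and Crabp2 among them. Hoxd4, found by its identifier alone, had 1.03, 0.183 and 0.680 CPM in WT and 0.184, 0 and 0.0454 CPM in Scl-/- cells and was too low to be tested.

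**Figure D4:**
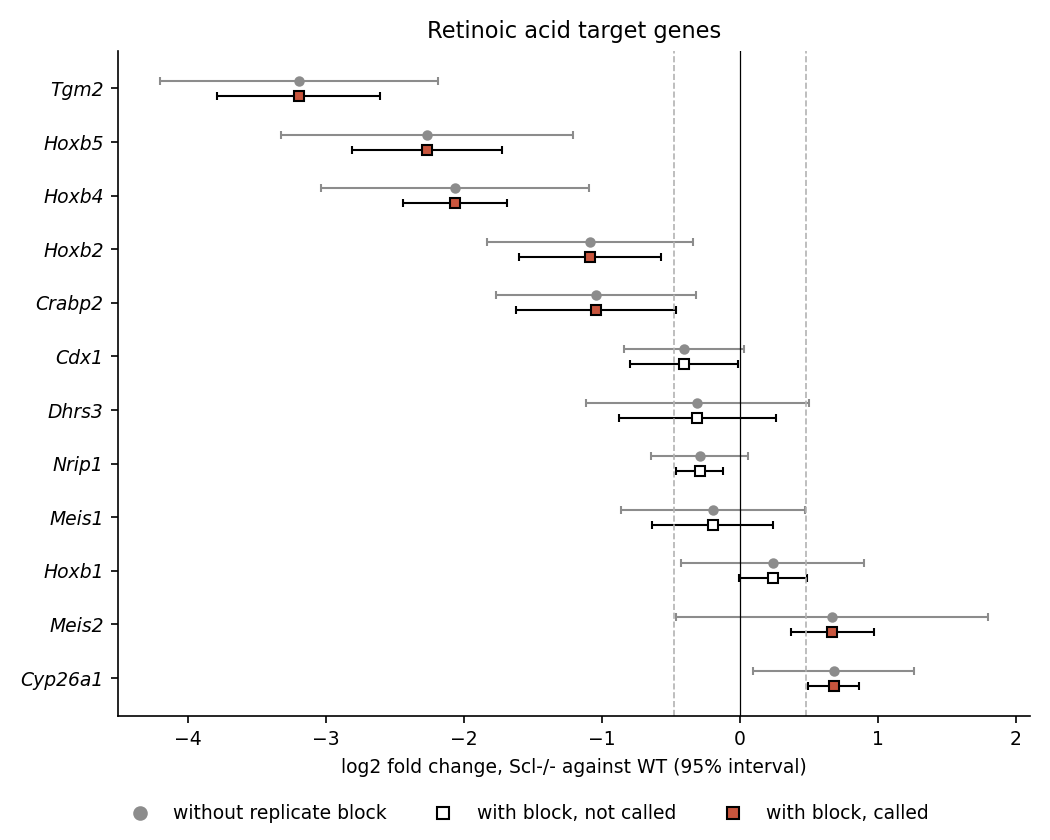
Log2 fold changes, Scl-/- against WT, with 95% intervals from limma for 12 tested target genes of retinoic acid, from the lowest to the highest. Circles are the fit without the replicate block, squares the fit with it, filled where the gene was called, and dashed lines mark the threshold of 0.48. Tgm2, Hoxb5, Hoxb4 and Hoxb2 lie lowest, and Cyp26a1 and Meis2 highest.

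Markers of the cell types in such cultures were read beside these genes. Of the 7 FLK1+ mesoderm markers, 7 had rows, and their summed level was 1749, 1745 and 1880 CPM in WT and 1624, 1938 and 1996 CPM in Scl-/- cells. Within that list T, Mesp1, Pdgfra and Etv2 were called higher in Scl-/- cells with the block, where 6.04% of all genes were. Lmo2 and Gata2 were called lower, where 6.6% of all genes were, so the list's parts moved in opposite directions. Of 10 paraxial mesoderm markers, 8 had rows and Meox1 and Hes7 had none. Their sum was 29.0, 140 and 37.2 CPM in WT and 50.6, 292 and 139 CPM in Scl-/- cells. Dll1 had the highest mean over the 6 libraries, close to that of Dll3 (38.3 and 38.2 CPM), and Dll3 was above it in all libraries but those of replicate 2. Tbx6, Msgn1, Dll1, Pcdh8 and Dll3 were called higher with the block, where 6.04% of all genes were. Without the block 0 of the 8 were called, against 2.36% of all genes. Tcf15 and Foxc2, which were not called, were lower in 3 of 3 pairs (log2 fold changes -0.70 and -0.23). Replicate 2 had the highest paraxial sum of each group, as it had the highest Cyp26a1, and the Scl-/- library was the higher in 3 of 3 pairs for both. The pluripotency and neuroectoderm sums, given below, were also highest in replicate 2 of each group. The neuroectoderm sum was higher in the Scl-/- library in 3 of 3 pairs, and the pluripotency sum was not. The FLK1+ mesoderm, cardiac and endoderm sums were not highest in replicate 2 of either group. The 10 haematopoietic and endothelial markers summed to 502, 272 and 542 CPM in WT and to 89.5, 38.6 and 80.3 CPM in Scl-/- cells. All 10 were called lower with the block (Cdh5, Pecam1, Fli1, Lyl1, Gata1, Gfi1b, Runx1, Esam, Tie1 and Tek), where 6.6% of all genes were. Without the block 7 were called lower, where 2.36% of all genes were called in either direction. Fli1 had the highest mean over the 6 libraries and in WT, and Runx1 the highest in Scl-/- cells. In WT this sum was lowest in replicate 2, where Tgm2, Hoxb2, Hoxb4 and Hoxb5 were lowest too.

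Of 10 cardiac markers, 8 had rows, with Tbx5 and Tnnt2 absent and Hand1 the most abundant by its mean, and their sum was 648, 674 and 718 CPM in WT and 775, 625 and 643 CPM in Scl-/- cells. With the block Gata4, Isl1 and Myl7 were called higher, where 6.04% of all genes were, and none was called lower, where 6.6% were. Without the block 0 of the 8 were called, against 2.36% of all genes. A negative log2 fold change was found for 5 of the 8, among them Hand1 and Mef2c, and the list's median was -0.13. The 7 pluripotency markers (most abundant Pou5f1) summed to 150, 210 and 135 CPM in WT and 121, 285 and 239 CPM in Scl-/- cells. Pou5f1 and Nanog were called higher and Esrrb and Dppa4 lower with the block, against the same shares of all genes, and 0 of the 7 without it. Of 8 endoderm markers 3 had rows, and Foxa2, Afp, Ttr, Apoa1 and Hnf4a had none. The sum of the 3 was 133, 64.3 and 144 CPM in WT and 36.7, 11 and 28.8 CPM in Scl-/- cells. It came mostly from Sox7, which along with Sox17 is expressed in blood-forming endothelium as well. Sox7 and Sox17 were called lower with the block, where 6.6% of all genes were, and 0 of the 3 were called without it. Cer1, which rested on 6 to 127 reads per library, went the other way. It was higher in 3 of 3 pairs and not called (log2 fold change 0.85, 95% interval -0.61 to 2.31 without and 0.10 to 1.60 with the block). Of 7 neuroectoderm markers 2 had rows, Pax6 and the more abundant Nes, and Sox1, Zic1, Pax3, Olig2 and Neurog2 had none. Their sum was 74.4, 94.8 and 64.5 CPM in WT and 124, 127 and 114 CPM in Scl-/- cells. Nes was called higher with the block (log2 fold change 0.76, limma adjusted p 0.00124), where 6.04% of all genes were. Pax6 was not called (log2 fold change 0.05), and 0 of the 2 were called without the block. The part of cell composition in the values of the retinoic acid genes was not tested.

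**Figure D5:**
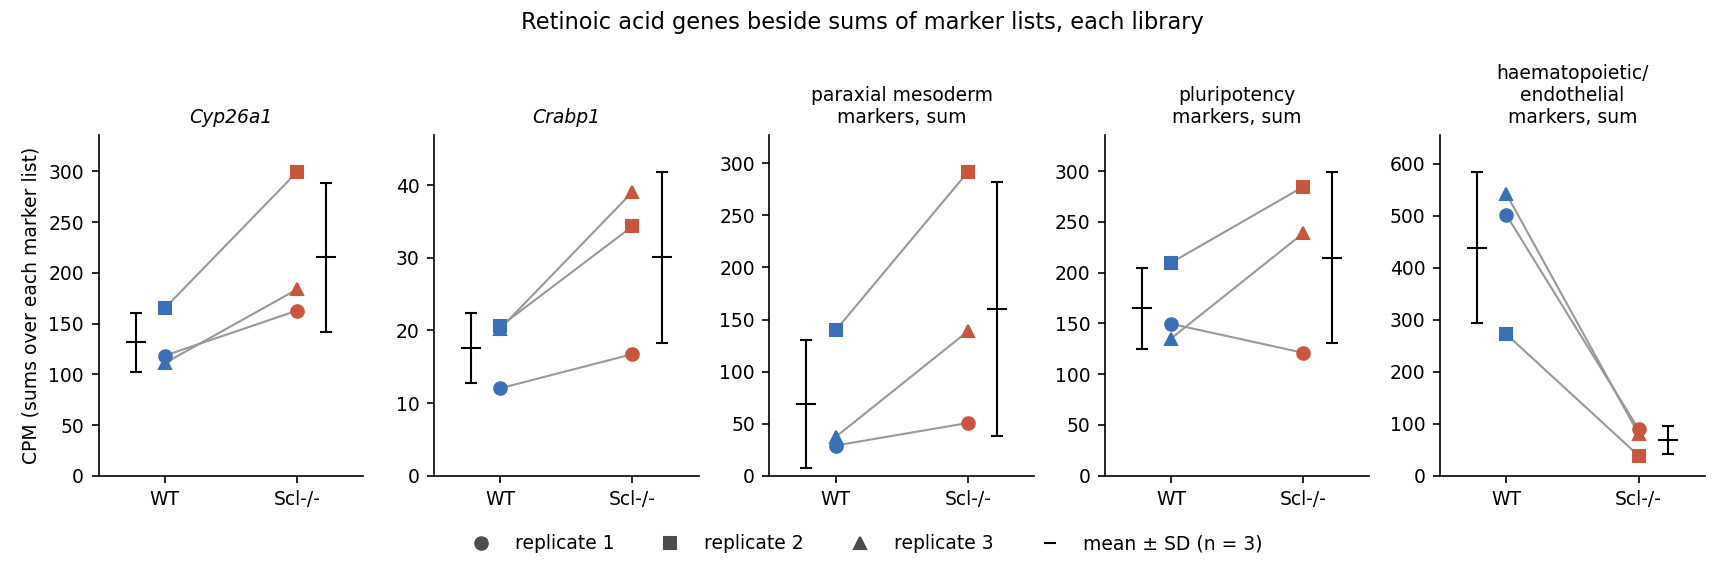
CPM of Cyp26a1 and Crabp1 and summed CPM of the paraxial mesoderm, pluripotency, and haematopoietic and endothelial marker lists in each library. Lines join libraries of the same replicate number, and bars give the mean and SD of 3 libraries. Replicate 2 is the highest of each group for Cyp26a1, the paraxial sum and the pluripotency sum, and the lowest for the haematopoietic and endothelial sum.

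The nearest tested genes on each side of the called listed genes gave a view of their surroundings. Cyp26c1 lies 4410 bases from Cyp26a1 and was not called, as given above, and Myof, 197508 bases away on the other side, had a log2 fold change of -0.31 and was not called. Nes, 17702 bases from Crabp2, was called in the opposite direction with the block (log2 fold change 0.76, limma adjusted p 0.0599 without and 0.00124 with it), and Isg20l2 on the other side had a log2 fold change of -0.057. Beside Crabp1, Wdr61 had -0.049 and Ireb2 had 0.11, and beside Aldh1a2, Adam10 had -0.26 and Polr2m had -0.00067. None of these 4 was called. Over the 6 libraries, the genes most like Cyp26a1 among 13953 compared were Pdlim5, Pbx3 and Greb1, whose centred log2 levels differed from those of Cyp26a1 by a root mean square of 0.076, 0.086 and 0.10. Those most like Aldh1a2 were Satb1 (0.10), Gm12174 (0.11) and Tmem86a (0.11).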

How the data were processed

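The authors aligned reads to mm9 with TopHat2 2.0.8b, removed duplicate read pairs, filtered by mapping quality with SAMtools 0.1.19 and deposited CPM values normalized with edgeR (TMM). The counting tool and annotation are not stated. Each column is whole multiples of 1 step, from which reads were worked out. A gene was tested if 3 or more libraries reached 0.5 CPM, which dropped 14 of 14005. The test was limma 3.58.1 (R 4.3.3; lmFit, then eBayes with a trend on intensity) applied to log2(CPM + 0.5), its model holding condition alone, with Benjamini-Hochberg adjustment over all tested genes. The replicate number was added as a block in a fit beside it. Deviations from the group means correlated at 0.59, 0.76 and 0.75 across genes between libraries of the same number, and at -0.62 to -0.10 between others. The test was tried on simulated data. Per-kb levels use the summed exon length of the GENCODE annotation. Python 3.11.15, NumPy 2.4.6, pandas 2.3.3 and Matplotlib 3.10.9 did the rest.

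Named genes are the 9 listed genes, Tal1, the called genes and the most abundant gene of each list, list genes without a row, tested neighbours of called listed genes, and the 3 genes most like Cyp26a1 and Aldh1a2 (mean of at least 1 CPM). A few genes under this rule are counted but neither named nor drawn. Hoxb1, Hoxd4, Rxrg, Kat2b, Med1, Ncoa2, Ncoa3, Nrip1 and Nr4a1 were named after their values were seen. So were Foxc2, Tcf15, Mef2c, Cer1, Cyp26b1, Fabp5, Ppard, Aldh1a3 and Pax6. The members and lists were chosen with earlier results of these data known. Alternatives were a pseudocount of 0.1 or of 1, testing genes without a filter, requiring a mean of 2 CPM, median-ratio rescaling, no trend, chromosome medians removed, the block, and libraries or pairs left out. No set of genes was tested as a set.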

Additional observations from a re-analysis of the deposited data

How the results depend on the processing

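A pseudocount of 0.1 or of 1, testing without a filter, requiring a mean of 2 CPM, median-ratio rescaling and no intensity trend were run without the replicate block. There they left the signs of the listed genes as they were and 0 of them called, while the mean of 2 CPM leaves out Aldh1a2 and so gives it no value. The 4 calls made with the block were not rerun under these settings, and with a pseudocount of 1 the log2 fold change of Aldh1a2 is -0.42, below the fold threshold. The paired fit, with the replicate block, moved the genes called from 330 to 1768, listed genes from 0 to 4, other retinoid metabolism genes from 1 to 2 and targets from 1 to 9. Chromosome medians removed with the block gave 1495 genes, 3 listed genes (without Aldh1a2), 2 other retinoid metabolism genes, 2 receptor and coregulator genes (from 0) and 9 targets. Chromosome medians removed without the block gave 2 targets, a pseudocount of 1 gave 2 targets, and no intensity trend gave 0 other retinoid metabolism genes. The cause was not tested.

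Over the single libraries left out, genes called ranged from 44 (without WT replicate 1) to 384 (without Scl-/- replicate 1). The count was 128 without WT replicate 3, 129 without Scl-/- replicate 2 and 162 without Scl-/- replicate 3. Listed genes called ranged from 0 to 1 (Crabp2, without Scl-/- replicate 1), other retinoid metabolism genes from 0 to 1, receptor and coregulator genes from 0 to 0 and targets from 0 to 4 (0 without WT replicate 1 or Scl-/- replicate 2, 4 without WT replicate 2 or Scl-/- replicate 1). With the block and the pair of replicate 1, 2 or 3 left out, settings chosen after seeing the data, genes called were 2062, 1122 and 1210 and listed genes 3, 2 and 2. Other retinoid metabolism genes were 2 each time, receptor and coregulator genes 1, 0 and 2, and targets 9, 6 and 6. These fits have fewer samples.

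Signs reversed for Rara (-0.13 with chromosome medians removed, with or without the block), for Rarg (from -0.40 to 0.033 over single libraries, positive without Scl-/- replicate 2, and 0.044 with the block and without replicate 2), for Rxra (-0.32 to 0.024, positive without Scl-/- replicate 1) and for Rxrb (-0.0014 to 0.15, negative without Scl-/- replicate 3), none of which was called. With the block and without replicate 1, Rarg had -0.42 (limma adjusted p 0.00868, from 0.00868 to 0.902 over the pairs), below the fold threshold. Over single libraries left out the log2 fold change ran from -0.63 to -0.37 for Aldh1a2, 0.46 to 1.07 for Crabp1, -1.39 to -0.80 for Crabp2 and 0.42 to 0.85 for Cyp26a1. Depth limits Aldh1a2 (42 to 88 reads per library) and Crabp2 (41 to 155).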
